A study of Mus musculus with 10 samples.

Results

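The IFIT, OAS-like and Mx antiviral genes are transcripts that cells make in large amounts when type I interferon reaches them. Here 10 of them were followed: Ifit1, Ifit2 and Ifit3, Oasl1 and Oasl2, Rsad2, Isg15, Usp18, Mx1 and Mx2. All probe sets whose annotation named exactly 1 gene, that gene being 1 of these 10, were taken. This gave 11 of the 45037 non-control probe sets and 9 of the 18193 genes on the array, with 3 probe sets for Rsad2 and 1 for each of the other genes. The single probe set of Isg15 also named the pseudogene Gm9706, so Isg15 had no value of its own. All 9 measured genes were above the filter on dim genes, which kept 10916 genes.

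Lipopolysaccharide, a bacterial cell-wall component, is sensed by Tlr4, whose adaptor Ticam1 leads through Irf3 to transcription of Ifnb1. Secreted interferon-beta binds Ifnar1 and Ifnar2 on other cells, and the kinases Jak1 and Tyk2 then act through factors that include Stat2 and Irf9, which bind a promoter element called the interferon-stimulated response element. In brain, vascular cells, microglia and astrocytes are known to make these transcripts after systemic inflammation.

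The study compared 2 groups of 5 mice, 1 array per mouse, all on the DBA1/lacJ background. The mice of both groups were injected intraperitoneally with lipopolysaccharide at 120 µg/kg, and brains were taken 5 h later. Of these mice 5 were labelled knockout (KO) for mPGES-1, the inducible prostaglandin E synthase encoded by Ptges, and 5 were labelled wild type (WT). The preoptic region of the hypothalamus, which controls fever, was cut out by laser capture microdissection and its RNA was amplified in 2 rounds before hybridization. No mice without lipopolysaccharide were analysed here, so the induction of the antiviral genes was not measured, and the labels give no age or construct for the deletion.

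Ptges, the targeted gene, went against the labels at 1 of its 3 probe sets. Probe set 1439747_at gave signals of 76.1, 17.5, 56.2, 67.8 and 32.2 on the arrays labelled KO, against 5.29, 2.22, 9.33, 4.35 and 1.51 on those labelled WT. These groups did not overlap, which also held for 4.68% of the 10916 genes above the filter. The log2 difference was 1.60 (SE 0.31, limma adjusted p = 0.111 over all probe sets, exact permutation test p = 0.0079, the smallest that 5 against 5 arrays can give). The other probe sets overlapped between the groups, with differences of 0.95 (1449449_at, SE 0.37, adjusted p = 0.302) and 0.27 (1449450_at, SE 0.35, adjusted p = 0.774). All 3 were dim, and where the probes lie relative to the deleted part is not given in the sources used here. KO and WT below therefore mean the libraries labelled so, and every direction rests on those labels.

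The arrays had been scaled to the same trimmed mean signal (200.002 on each), but their median signal lay between 24.6 and 29.8 on KO arrays and between 32.0 and 44.8 on WT arrays. RNA spike-ins gave signal on 7 arrays and none on KO replicate 3, WT replicate 2 and WT replicate 5. Of the preoptic markers, 9 of the 11 with a probe set of their own were above the filter, with summed signals of 2796 to 4710 on KO arrays and 2369 to 3389 on WT arrays. All 6 neuron markers and all 6 astrocyte markers were above it too.

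Because interferon acts on such genes through the response element named above, their promoters are shown first. RefSeq windows (build GRCm38.p6) reaching from 250 bases before the listed start of a gene to 50 bases after it were found for 7 of the 10 genes. Windows for Usp18, Mx1 and Mx2 were not used here. The core of the interferon-stimulated response element was searched as GAAANNGAAA or, on the other strand, TTTCNNTTTC, and overlapping matches were counted apart. It occurred in 1131 of 32851 windows in the whole table (3.44%). Below are the 160 bases before the listed start of 5 measured genes, with each match in capitals. Of these genes 3 have a match, and both OAS-like genes are shown for contrast. The stretches lie at chr19:34640729-34640888 (Ifit1, plus strand), chr19:34583369-34583528 (Ifit3, plus strand), chr12:26456453-26456612 (Rsad2, minus strand), chr5:114923080-114923239 (Oasl1, plus strand) and chr5:114896774-114896933 (Oasl2, plus strand). All distances are from the start listed with each window. The RefSeq gene span begins earlier for Ifit3 (34583119), Oasl1 (114923143) and Oasl2 (114896926). The Ifit3 stretch thus lies wholly inside its gene span, and those of Oasl1 and Oasl2 partly.
Ifit1: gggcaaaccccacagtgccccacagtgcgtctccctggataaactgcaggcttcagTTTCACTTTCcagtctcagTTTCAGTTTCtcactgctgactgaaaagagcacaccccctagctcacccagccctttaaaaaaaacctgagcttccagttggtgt
Ifit3: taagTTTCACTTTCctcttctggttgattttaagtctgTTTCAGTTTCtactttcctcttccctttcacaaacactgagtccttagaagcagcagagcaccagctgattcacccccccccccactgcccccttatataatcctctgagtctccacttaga
Rsad2: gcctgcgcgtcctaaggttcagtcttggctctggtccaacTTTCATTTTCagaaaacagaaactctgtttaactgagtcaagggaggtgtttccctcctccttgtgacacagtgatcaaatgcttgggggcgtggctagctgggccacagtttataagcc
Oasl1: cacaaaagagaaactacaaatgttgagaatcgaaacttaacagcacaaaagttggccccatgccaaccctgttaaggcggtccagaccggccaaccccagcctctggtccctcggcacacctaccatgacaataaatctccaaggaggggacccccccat
Oasl2: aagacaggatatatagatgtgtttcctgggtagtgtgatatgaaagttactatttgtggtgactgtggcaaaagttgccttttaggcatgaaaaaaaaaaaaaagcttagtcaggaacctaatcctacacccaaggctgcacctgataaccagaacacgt
The Ifit1 window held 2 matches, whose first bases lie 104 and 85 bases before the start, and the Ifit3 window held 2, at 156 and 122 bases before it. Rsad2 held 1 match, at 120 bases. Isg15, which had no array value of its own, held 3 overlapping matches, at 78, 72 and 66 bases before its start. The windows of Ifit2, Oasl1 and Oasl2 held none, which says only that these letters are not in them. In all, 3 of the 6 measured genes with a window held the motif. A match describes the sequence and was not a measurement of factor binding.

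No difference between KO and WT passed the test for any of the 9 antiviral genes, and the values of KO and WT arrays overlapped for each of them. Of all 10916 genes tested, 0.0733% passed limma at a Benjamini-Hochberg adjusted p below 0.05 (0.0183% higher and 0.055% lower in KO), 17.2% had an unadjusted p below 0.05 and 4.68% did not overlap between the groups. Of the 9 antiviral genes 0 passed, 0 had an unadjusted p below 0.05 and 0 were without overlap. As deposited, 7 had a lower mean in KO and 2 a higher one, with a median log2 difference of -0.26. Over all genes tested the median was -0.01 and 50.9% were lower. With quantile normalization 7 of the 9 were again lower, with a median of -0.26 beside 0.02 over all genes tested. Centring each array on its median instead moved the median of all genes tested to 0.27, with 2221 of 10916 lower. Then 4 of the 9 genes were lower and 5 higher, with a median of 0.0231. In such tissue samples, fewer cells of a type and less RNA per cell cannot be told apart.

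The IFIT proteins bind foreign RNA and block its translation, and their 3 genes lie in 1 cluster on chromosome 19. That cluster also holds Ifit3b, a close copy of Ifit3, and whether the Ifit3 probe set reads it was not tested. The Ifit1 signal was 5084, 723, 1928, 3578 and 1993 on KO replicates 1 to 5, against 944, 6630, 1285, 3191 and 6680 on WT replicates 1 to 5. Both groups thus held bright and dim arrays, and the lowest value of all was a KO array. The log2 difference was -0.35 (SE 0.54, 95% interval -1.50 to 0.80, limma adjusted p = 0.780). For Ifit2 the signal was 3560, 1650, 3308, 3807 and 999 on KO arrays, against 1052, 5320, 1302, 2600 and 4929 on WT arrays. Its WT values fell into 2 low, 1 middle and 2 high arrays, whereas 3 of the 5 KO arrays lay close together. The difference was -0.07 (SE 0.44, interval -1.005 to 0.87, adjusted p = 0.955). Ifit3 had signals of 3155, 1017, 1628, 2143 and 1366 on KO arrays, against 742, 2283, 1056, 2500 and 4888 on WT arrays. The WT values lay on both sides of all 5 KO values. The difference was -0.10 (SE 0.41, interval -0.96 to 0.76, adjusted p = 0.922).

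The OAS-like genes encode relatives of the 2'-5' oligoadenylate synthetases. In mice, Oasl2 keeps synthetase activity, while Oasl1 lacks it and limits translation of the Irf7 transcript. Oasl1 gave 187, 36.5, 102, 169 and 59.6 on KO arrays, against 59.6, 153, 78.7, 141 and 367 on WT arrays. The lowest array was labelled KO and the highest WT, and the others interleaved (difference -0.41, SE 0.42, interval -1.30 to 0.49, adjusted p = 0.654). Oasl2 gave 181, 110, 181, 161 and 194 on KO arrays, against 133, 77.1, 107, 169 and 323 on WT arrays. Of the KO values 4 were close together, and both the lowest and the highest value were on WT arrays (difference 0.15, SE 0.29, interval -0.46 to 0.76, adjusted p = 0.821).

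Rsad2 encodes viperin, a radical SAM enzyme that makes a chain-terminating nucleotide. Its brightest probe set, 1436058_at, gave 13910, 3954, 8401, 7813 and 5145 on KO arrays, against 4604, 19606, 8233, 13302 and 22367 on WT arrays. The 2 highest arrays were WT and the lowest was KO, but the groups overlapped over most of their range. The log2 difference was -0.71 (SE 0.38, interval -1.52 to 0.09, adjusted p = 0.350). Probe set 1421009_at followed it closely, with a correlation of 0.985 over the arrays and signals of 1729, 328, 971, 940 and 496 on KO arrays, against 303, 1835, 660, 1127 and 3475 on WT arrays. The third probe set, 1421008_at, was dim, at 10.8 to 43.2 on KO arrays and 3.89 to 98.1 on WT arrays, and correlated less with the other 2, at 0.62 and 0.68. Fitted over all probe sets, of which 0% were called and 12.6% had an unadjusted p below 0.05, the differences of these 2 sets were -0.49 (SE 0.50, adjusted p = 0.703) and -0.19 (SE 0.39, adjusted p = 0.864).

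Usp18 encodes the protease that removes Isg15 from proteins and also holds back signalling at Ifnar2. It gave 418, 128, 255, 345 and 199 on KO arrays, against 52.9, 218, 92.7, 185 and 526 on WT arrays. The 2 lowest values were WT, and so was the highest. The difference was 0.56 (SE 0.44, interval -0.37 to 1.48, adjusted p = 0.532), opposite in sign to 7 of the other genes.

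Mx1 and Mx2 encode dynamin-like GTPases that trap viral nucleoproteins, and both are annotated as transcribed pseudogenes in GRCm38.p6, which is built from C57BL/6J. Mx1 gave 482, 133, 335, 233 and 82.1 on KO arrays, against 153, 319, 142, 193 and 814 on WT arrays. Apart from its highest array the WT values lay within the KO range (difference -0.26, SE 0.46, interval -1.22 to 0.71, adjusted p = 0.809). Mx2 gave 197, 49.2, 101, 61.8 and 64.7 on KO arrays, against 75.5, 130, 108, 223 and 275 on WT arrays. The 3 lowest values were KO and the 2 highest WT, with 5 arrays mixed between them. Its difference was -0.70 (SE 0.35, interval -1.44 to 0.03, adjusted p = 0.313, exact permutation test p = 0.135).

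**Figure D1:**
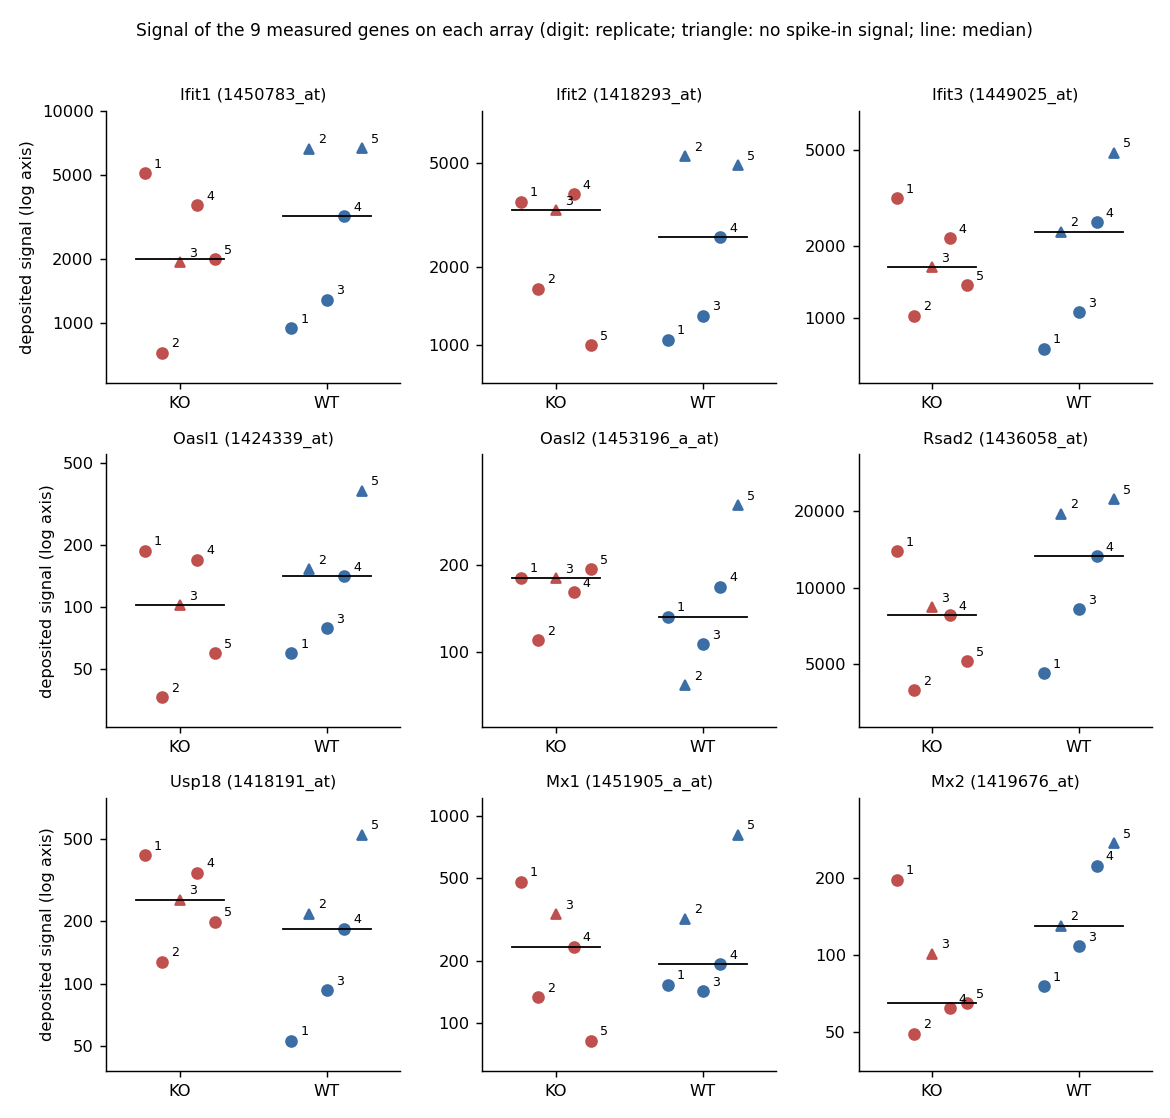
Deposited signal (log axis) of the brightest probe set of each of the 9 measured genes, KO arrays left and WT arrays right in each panel. Each symbol is 1 array with its replicate number, triangles are the 3 arrays without spike-in signal and the line is the group median; the groups overlap in every panel.

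The signs of 5 of these differences turned when single arrays were left out, while Oasl1, Rsad2, Usp18 and Mx2 kept theirs without any 1 array. Without WT replicate 5, the brightest array for 8 of the 9 genes, Ifit2 was at 0.18, Ifit3 at 0.24 and Mx1 at 0.14, and the median of the 9 genes was 0.14, while Usp18 was at 0.95 (limma adjusted p = 0.230). Without KO replicate 2, Ifit1 was at 0.04, Ifit2 at 0.06 and Ifit3 at 0.08. Ifit2 and Mx1 also turned without KO replicate 5 (0.24 and 0.05), Ifit2 and Oasl2 without WT replicate 2 (0.21 and -0.04) and Ifit3 without WT replicate 4 (0.0024). Within the 7 arrays with spike-in signal, 4 KO and 3 WT, 2 of the 9 genes were lower and 7 higher, with Ifit1 at 0.52, Ifit2 at 0.51, Ifit3 at 0.48, Oasl1 at 0.09 and Mx1 at 0.22. Rsad2 (-0.21) and Mx2 (-0.53) kept their sign there, and Usp18 was at 1.20 (limma adjusted p = 0.254). No gene of the 9 passed limma in any of these fits.

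**Figure D2:**
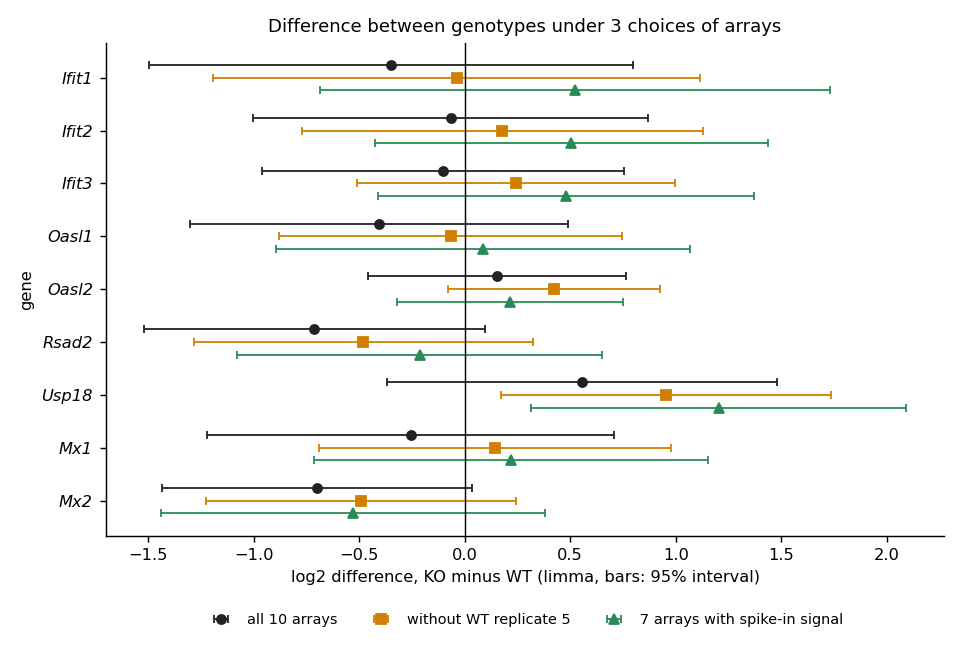
Log2 difference, KO minus WT, of each gene (limma estimate with 95% interval) from all 10 arrays, without WT replicate 5, and from the 7 arrays with spike-in signal. The Ifit2, Ifit3 and Mx1 estimates lie below 0 with all arrays and above it in the other fits, and Usp18 is above 0 in all 3.

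The antiviral genes varied widely between mice of 1 group. The SD of the log2 value ran between 0.30 (Oasl2) and 1.06 (Ifit1) on KO arrays and between 0.68 (Mx2) and 1.30 (Ifit1) on WT arrays. Over all genes tested the median SD was 0.27 on KO arrays and 0.34 on WT arrays. The pooled SD of the 9 genes had a median of 0.87, beside 0.32 over all genes tested, and lay at percentiles 89.3 (Oasl2) to 99.8 (Ifit1) of all genes tested. Between the highest and the lowest of the 10 arrays the signal differed by 4.19-fold for Oasl2 and 10.1-fold for Oasl1, the narrowest and the widest range of the 9 genes.

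The SD was larger on WT arrays for 9 of the 9 genes, but this was common, holding for 65.8% of all genes tested. In a limma comparison of absolute deviations from the group mean, 0 of the 9 genes and 0% of all genes tested passed, with 9.82% at an unadjusted p below 0.05. Without WT replicate 5 the same comparison called 3 of all genes tested and 0 of the 9. In simulated data it recovered 0% of genes with a 16-fold difference in SD, so its result cannot show that the spread was equal. A comparison of log2 deviations, chosen after seeing this, recovered 86% of them and 26% at a 4-fold difference. It too called 0 of the 9 genes and 0% of all genes tested, with 9.62% at an unadjusted p below 0.05.

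The same mice were high or low for most of the 9 genes. Among KO arrays, replicate 1 was highest for 7 genes and among the 2 highest for all 9, and replicate 2 was lowest for 7 and among the 2 lowest for all 9. Among WT arrays, replicate 5 was highest for 8 genes, replicate 1 was lowest for 7, and replicate 3 was among the 2 lowest for all 9. Oasl2 was the exception at WT replicate 2, its lowest array of all, where Ifit2 had its highest value of all.

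**Figure D3:**
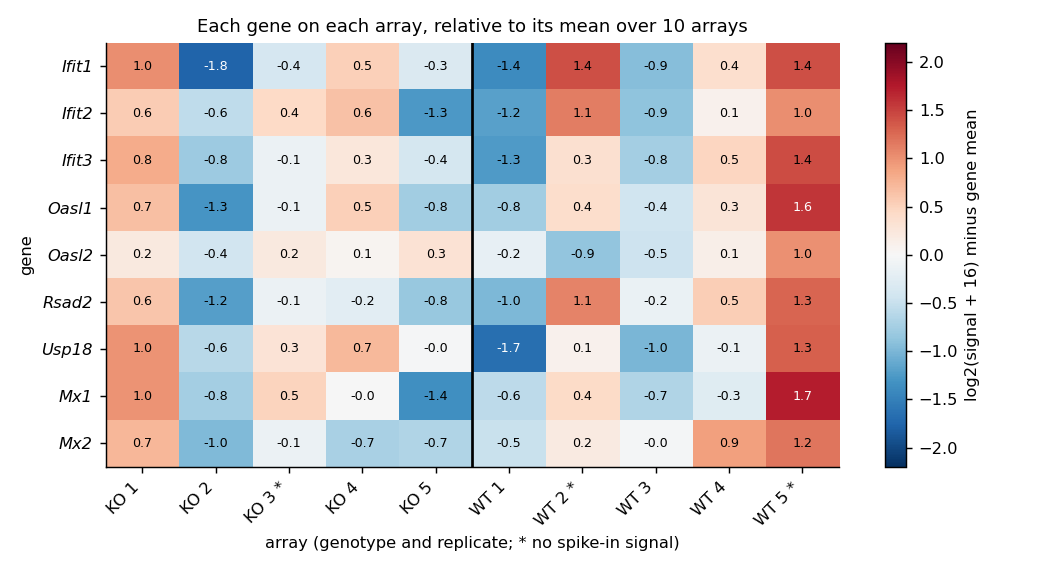
Log2(signal + 16) of each gene on each array minus that gene's mean over the 10 arrays, KO arrays left and WT arrays right; colour and number give the value and an asterisk marks arrays without spike-in signal. All 9 genes are above their mean on KO 1 and WT 5 and below it on KO 2, WT 1 and WT 3, and the other 5 arrays are mixed.

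With the group means removed, the median Pearson correlation over the 36 pairs of genes was 0.84, between 0.20 and 0.985. The jackknife SE over arrays was 0.068, and the median Spearman correlation was 0.80. A correlation of 0.8 or more was reached by 23 pairs (63.9%). Of all pairs of genes tested 0.808% reached it, and their median was 0.0033. In an exact permutation test that shuffled arrays within genotype, 27 pairs passed by Pearson's r and 25 by Spearman's rho after Benjamini-Hochberg adjustment over the 36 pairs. Ifit3 and Usp18 had the highest correlation, 0.985, and Oasl1 and Usp18 were at 0.963. The array values of Ifit3 and Usp18 thus ran almost in parallel although their differences between the groups had opposite signs.

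Oasl2 had the lowest correlations. Its 8 pairs had a median correlation of 0.54, between 0.20 (Ifit2) and 0.61 (Mx2), and 0 passed. The 28 pairs among the other genes had a median of 0.85 and a lowest value of 0.63, and 27 passed, the exception being Ifit2 with Mx2 (adjusted exact permutation p = 0.099). Oasl1 correlated closely with the IFIT genes, Rsad2 and Usp18. Its promoter window, like those of Oasl2 and Ifit2, held no match to the motif. A link between motif and correlation was not tested. Within each group the median over all 36 pairs was 0.78 over the 5 KO arrays and 0.89 over the 5 WT arrays. Leaving out the 2 arrays farthest from the median of 1 gene of each pair gave a median of 0.79, between -0.25 and 0.97. The gene used was the member of the pair named first in the opening list. In the 7 arrays that carried spike-in signal the median was 0.81, between 0.23 and 0.98. Without WT replicate 5 it was 0.80, between -0.22 and 0.98.

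**Figure D4:**
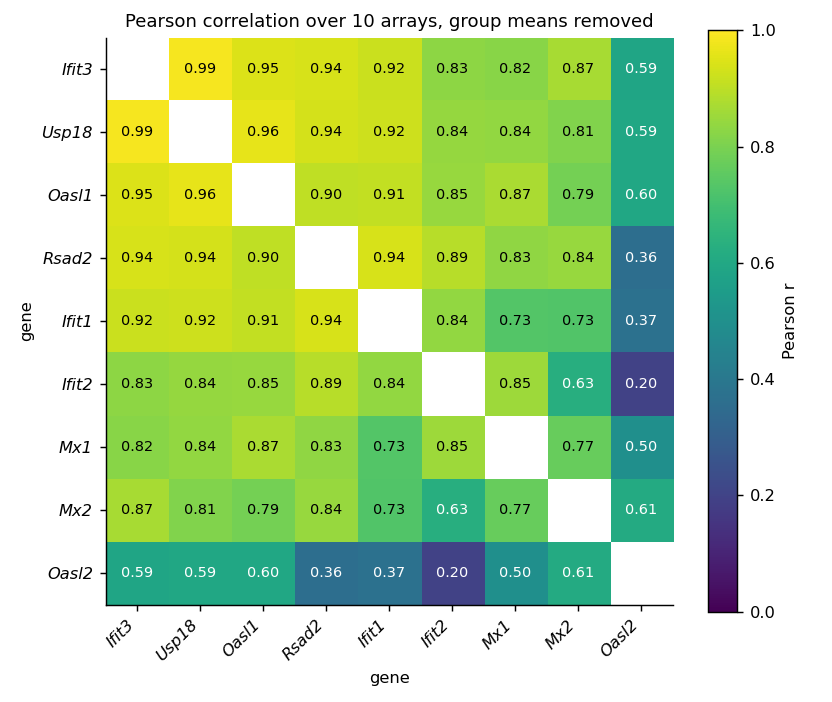
Pearson correlation of log2(signal + 16) between each pair of the 9 genes over 10 arrays with group means removed. The bottom row and right column (Oasl2) lie between 0.20 and 0.61, and the other pairs at 0.63 or above.

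Each of the 10916 genes was then set against the mean of the 9 genes, each scaled to mean 0 and SD 1. This is a description over 10 arrays that share their amplification and scaling. The most alike genes outside the 9 were Irgm2 (0.985), an interferon-inducible GTPase, Gng11 (0.984), a G protein subunit, Cd40 (0.982), a co-stimulatory receptor, Parp14 (0.976), an ADP-ribosyltransferase, and Spg7 (0.968), a mitochondrial protease. Then came the double-stranded RNA sensor Tlr3 (0.962), Samd9l (0.961), Gm4951 (0.952), the guanylate-binding protein gene Gbp6 (0.951) and Trim25 (0.951), a ubiquitin ligase. The most negative were BC048403 (-0.96), Tmem132d (-0.94) and Dmxl2 (-0.94). Of the other 10907 genes, 201 (1.84%) reached 0.8, 131 were at -0.8 or below, and the median was 0.02.

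Further genes of the interferon pathway were taken from 8 lists with 58 tested genes outside the 9. Of these 0 passed limma, beside 0.0733% of all genes tested, and 5 had an unadjusted p below 0.05, beside 17.2%. As deposited, 14 were higher and 44 lower in KO, with a median difference of -0.14, beside 50.9% lower over all genes tested. With quantile normalization 16 were higher and 42 lower, with a median of -0.11 beside 0.02 over all genes tested. With median centring, however, 37 were higher and 21 lower, with a median of 0.14. Over all genes tested the median was then 0.27, with 2221 of 10916 lower. The directions given below for each list are as deposited and are open to the same shift. A correlation of 0.8 with the mean of the 9 genes was reached by 25 of the 58. One gene, Ifih1, is in 2 of the lists.

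Ligands and receptors had 8 tested genes, 3 higher and 5 lower, and a median correlation of 0.36 with the mean of the antiviral genes. The interferon-beta gene Ifnb1 was below the filter, at signals of 0.93 to 11.6 on KO arrays and 3.20 to 28.6 on WT arrays. Its difference was -0.64 (SE 0.26, adjusted p = 0.266 over all genes without the filter), and its correlations with the 9 genes had a median of 0.30 (0.28 without WT replicate 5 and 0.11 in the 7 spike-in arrays). The receptor genes Ifnar1 and Ifnar2 were at 0.08 (SE 0.21) and 0.18 (SE 0.24), and the kinase genes Jak1 and Tyk2 at 0.31 (SE 0.23) and -0.23 (SE 0.19). Jak2, a kinase of the interferon-gamma receptor, was the 1 gene of this list to reach 0.8, at 0.90. The lipopolysaccharide receptor gene Tlr4 was below the filter, at 11.8 to 25.7 on KO arrays and 1.46 to 38.0 on WT arrays (difference -0.04, SE 0.30).

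Signalling factors had 7 tested genes, 1 higher and 6 lower, with a median correlation of 0.32. Irf1, an interferon-induced factor, gave 147 to 231 with a median of 153 on KO arrays, against 199 to 361 with a median of 306 on WT arrays. The 2 groups overlapped slightly, the difference was -0.74 (SE 0.19, limma adjusted p = 0.080) and the correlation with the antiviral genes was 0.84. Irf7, which amplifies interferon production, was at -0.58 (SE 0.22, adjusted p = 0.197), Irf9 at -0.31 (SE 0.17, adjusted p = 0.365) and Irf3 at 0.78 (SE 0.40, adjusted p = 0.333). Stat2 was below the filter, at -0.61 (SE 0.28, adjusted p = 0.338). Set against each of the 9 genes, Irf7 and Irf9 had median correlations of 0.64 each and Stat2 of 0.71, and of these 27 relations 1 passed the exact permutation test adjusted over 162 by Pearson's r and 0 by Spearman's rho. The Irf9 median was 0.33 without WT replicate 5 and 0.24 in the 7 arrays that carried spike-in signal, against 0.59 and 0.51 for Irf7 and 0.63 and 0.64 for Stat2. Irf3 went the other way, with a median correlation of -0.26 and 0 of its 9 relations passing by either measure. Its median was -0.73 without WT replicate 5 and -0.77 in the 7 arrays.

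Among 6 tested sensors and adaptors 2 were higher and 4 lower, with a median correlation of 0.68, and 3 reached 0.8: Tlr3, Ddx58 (0.89) and Ifih1 (0.94), which sense viral RNA. The 2 with the smallest p were Ifih1 at -0.40 (SE 0.38, adjusted p = 0.615) and Mavs, the adaptor of Ddx58 and Ifih1, at 0.22 (SE 0.29, adjusted p = 0.734). Of 3 tested genes for ISG15 conjugation, Trim25 was at -0.33 (SE 0.29) and the activating enzyme gene Uba7 at -0.50 (SE 0.28), with correlations of 0.95 and 0.42. Of the 2'-5' oligoadenylate synthetase genes 2 were tested, Oas1a at -0.04 (SE 0.31) with a correlation of 0.92 and Oas2 at -0.59 (SE 0.29, adjusted p = 0.307) with 0.75.

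Other antiviral effectors had 16 tested genes, 2 higher and 14 lower, with a median correlation of 0.78, and 7 reached 0.8. Cmpk2, a nucleotide kinase, was at 0.46 (SE 0.25, adjusted p = 0.370) and Ifi27l2a at -0.68 (SE 0.31, adjusted p = 0.271). Guanylate-binding proteins and immunity-related GTPases had the highest median correlation of the 8 lists, 0.93, with 7 of 8 genes at 0.8 or more. In that list 3 genes were higher and 5 lower, with Gbp3 at 0.41 (SE 0.25, correlation 0.43) and Igtp at -0.61 (SE 0.41, correlation 0.94). Of 9 tested genes of MHC class I antigen presentation 2 were higher and 7 lower, with a median correlation of 0.81. Their smallest p belonged to the peptide transporter gene Tap1 at -0.60 (SE 0.23, adjusted p = 0.190) and to H2-D1 at -0.64 (SE 0.27, adjusted p = 0.230).

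**Figure D5:**
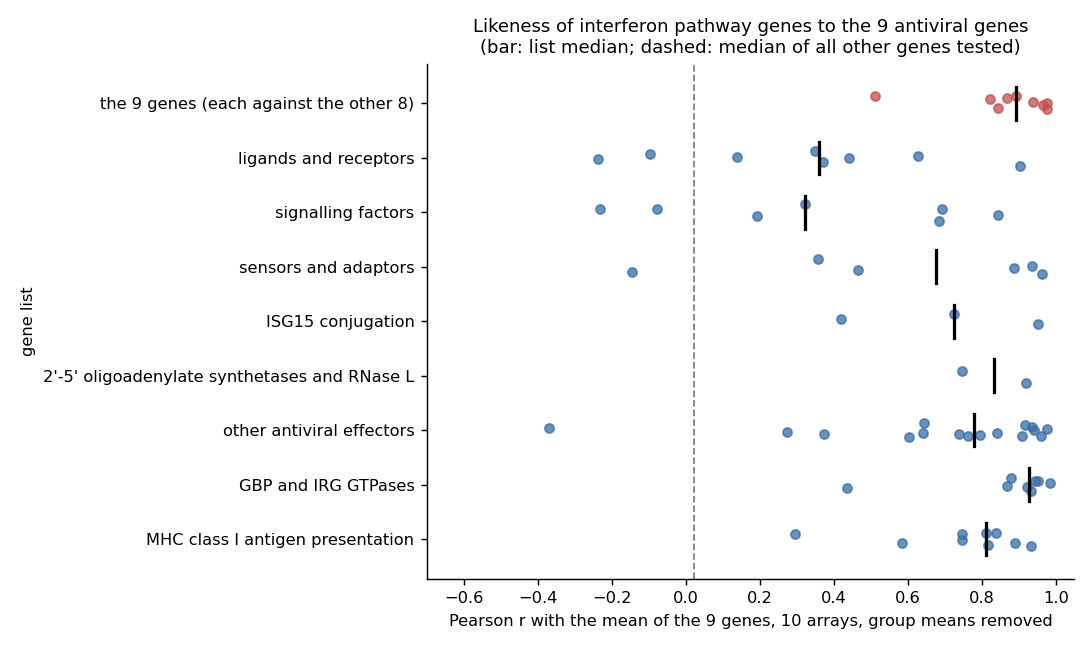
Pearson correlation of each tested gene of 8 interferon pathway lists with the mean of the 9 antiviral genes over 10 arrays, group means removed; the top row sets each of the 9 genes against the other 8, the bar is the list median and the dashed line the median of the other genes tested (0.02). GBP and IRG GTPases lie highest (median 0.93), and ligands, receptors and signalling factors lower (0.36 and 0.32).

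The sum of blood leukocyte markers, most of it the signal of Lcn2, moved with the antiviral genes. It ran between 979 and 2379 on KO arrays and between 882 and 3178 on WT arrays, and its correlation with the 9 genes had a median of 0.91, between 0.43 and 0.96. The exact permutation test adjusted over 162 relations was passed for 6 of the 9 genes by Pearson's r and for 2 by Spearman's rho. The median was 0.90 when the 2 arrays farthest from the median of the sum were left out. It was 0.89 without WT replicate 5 and 0.90 in the 7 arrays that carried spike-in signal. Of the 8 markers listed, 6 had a probe set of their own and 4 were above the filter. Lcn2 alone made up 62.1% to 88.9% of the sum on KO arrays and 54.2% to 82.7% on WT arrays, and its own correlation with the mean of the antiviral genes was 0.91. S100a8 was at 0.81, S100a9 at 0.68 and the pan-leukocyte gene Ptprc at 0.29. The monocyte receptor gene Ccr2 (-0.32) and the T cell gene Cd3e (0.18) were below the filter. Lcn2 is an acute-phase gene that brain vascular cells also make after lipopolysaccharide. The part of blood cells in the co-variation was not tested.

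For the summed markers of the other cell types no relation with the 9 genes passed the same test. Single markers were set only against the mean of the 9 genes, without a test, and those of 1 list could differ in sign. Markers above the filter ran from -0.84 (Gad1) to 0.28 for neurons and from -0.62 (Gja1) to 0.70 (Gfap) for astrocytes. They ran from -0.69 (Cldn5) to 0.26 (Esam) for endothelium and from -0.18 to 0.15 for microglia. The median correlation was -0.49 for the endothelial sum, 0.35 for the astrocyte sum, 0.10 for the microglial sum, 0.13 for choroid plexus and ependyma, -0.16 for neurons and 0.03 for the preoptic sum, with 0 of 9 relations passing for each. It was -0.20 for the hybridization controls, and -0.38 and -0.47 for the ratios of 3' to 5' signal of Gapdh and Actb, which read RNA length, again with 0 of 9 passing. The 9 correlations ran from -0.58 to -0.15 for Gapdh and from -0.70 to -0.30 for Actb. The Gapdh ratio was 33.2 to 51.5 on KO arrays and 24.6 to 53.4 on WT arrays. The Actb ratio was 112 to 298 on KO arrays and 116 to 355 on WT arrays. Its lowest values were on KO replicate 1 and WT replicate 5. Several of the median correlations moved without WT replicate 5. They were then -0.18 for the endothelial sum, 0.18 for the astrocyte sum, -0.04 for the microglial sum and 0.13 for the preoptic sum. The hybridization controls went to 0.43, the Gapdh ratio to -0.03 and the Actb ratio to -0.34. Without the 2 arrays farthest from the median of each measure, the endothelial sum was at -0.67, the astrocyte sum at 0.30 and the microglial sum at 0.48. Choroid plexus and ependyma were then at -0.08, neurons at -0.18 and the preoptic sum at -0.40. In the 7 arrays that carried spike-in signal these sums were, in the same order, at -0.60, 0.60, 0.16, 0.43, -0.48 and 0.12. Microglial marker sums were 4760 to 6936 on KO arrays and 6703 to 10333 on WT arrays, with 2 of the 7 measured markers, Cx3cr1 and Csf1r, above the filter. Most of this sum was the signal of Csf1r, at 4477 to 6213 on KO arrays and 6241 to 9479 on WT arrays. Below the filter, P2ry12 and Tmem119 had a higher mean in KO (differences 0.39, SE 0.29, and 0.36, SE 0.37). The other measured markers had a lower one. The sum thus reads mainly 1 gene.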

How the data were processed

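Preoptic tissue from 10 mice, 5 labelled knockout (KO) and 5 labelled wild type (WT), was measured on 1 array each. The deposited values are probe set intensity (signal) on a linear scale, and the submitters' processing notes name GCOS as the authors' tool, with its version and settings not given in the sources used here. Scaling to 1 trimmed mean (2% off each end) was found from the deposited intensities. There is no depth per array, and their number limits the precision.

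Probe sets were named through GEO's platform annotation: 34945 named 1 gene, 932 several and 9160 none, and 34741 matched RefSeq by Entrez ID with 0 symbols changed. Each gene was taken at its brightest probe set (an _x_at set only for want of another). The 40% of genes with the lowest mean were not tested, and log2(signal + 16) was fitted by genotype with limma 3.58.1 (lmFit, eBayes with trend, R 4.3.3), with Benjamini-Hochberg adjustment over 10916 genes at 0.05. For genes below that filter the fit was repeated with every gene. Fold differences of dim genes are understated on this scale. The fits were tested on simulated data.

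Correlations were taken with group means removed, with two-sided exact permutation tests over the 14400 arrangements of arrays within genotype (smallest p 6.9e-05). Correlations over arrays share amplification, scaling and batch. No 2 arrays held the same value at more than 0.00443% of probe sets.

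Beyond the listed antiviral genes, those named are Ptges, Ifnb1, Ifnar1, Ifnar2, Irf3, Irf7, Irf9, Stat2 and Tlr4, the 2 tested genes of each list with the smallest p, the 10 most and 3 least alike genes, and the marker genes given with their lists. Jak2, Ddx58 and Ifih1 as genes at 0.8 or more, and the markers named singly, were chosen after their values were seen. Members and lists were chosen with earlier results of these data known. Alternatives were other pseudocounts, scalings, filters and probe set rules, array weights, blocks, the hybridization controls as a covariate and leaving out each array.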

Additional observations from a re-analysis of the deposited data

How the results depend on the processing

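In every alternative run for the group comparison, 0 of the 9 antiviral genes passed limma. Of all genes, 1053 passed with median centring, 112 with array weights and fewer in every other alternative, down to 0. At an unadjusted p below 0.05 the 9 genes gave at most 2 (without KO replicate 1, without WT replicate 1 and with array weights). Over the same alternatives Rsad2 (-1.05 to -0.21) and Mx2 (-0.97 to -0.42) kept their sign, as did Usp18 (0.09 to 1.20). Median centring, which moved the median of all genes tested to 0.27, turned Ifit2 to 0.21, Ifit3 to 0.18 and Mx1 to 0.0231. In the 7 arrays that carried spike-in signal alone, Ifit1 was at 0.52, Ifit2 at 0.51, Ifit3 at 0.48, Oasl1 at 0.0886 and Mx1 at 0.22. With that signal as a block, Ifit2 was at 0.19 and Ifit3 at 0.0560. With the hybridization controls as a covariate Ifit2 was at 0.0907 and Oasl2 at -0.53. Leaving out each array in turn gave -0.74 to 0.0448 for Ifit1, -0.37 to 0.24 for Ifit2, -0.43 to 0.24 for Ifit3, -0.0440 to 0.42 for Oasl2 and -0.54 to 0.14 for Mx1. The cause of these turns was not tested. Replicate numbers did not pair the arrays (correlations of same-numbered deviations -0.13 to 0.07), and with the replicate block 0 of the 9 genes and 2 genes in all passed. The median pair correlation lay between 0.80 and 0.86 with other scalings, pseudocounts and probe set rules, by Spearman's rho, in the spike-in arrays and without each array; it was 0.79 without the 2 most distant arrays, 0.78 on KO arrays alone and 0.89 on WT arrays alone. With 5 mice per group the intervals of the differences were wide.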
